A study of Mus musculus with 12 samples.

Results

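The transcriptomes of peritoneal macrophages labelled Ythdf1-/- (KO) and wild type (WT) were compared after stimulation with lipopolysaccharide (LPS), with all genes considered. The comparison used the 3 KO LPS and the 3 WT LPS libraries, selected by their labels, 6 of the 12 libraries of the series. The other 6 libraries, 3 KO and 3 WT, came from cells given PBS and served to ask whether a genotype difference was particular to LPS. All cells were peritoneal macrophages elicited in young adult C57BL/6 mice, cultured overnight and then exposed for 6 h to LPS at 1 µg/mL or to PBS. Starch broth is given as the eliciting agent in one source and thioglycollate in another, so the agent is uncertain for every group. The KO mice carried a germline CRISPR/Cas9 deletion between a pair of guides, so every cell of the animal, and not macrophages alone, was targeted. Replicates are separate samples by their labels, and whether animals were pooled is not given in the sources used here.

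LPS is sensed by CD14 and the TLR4-MD2 complex. The adaptors TIRAP and MyD88 then activate NF-κB and MAP kinases, which drive cytokine and chemokine genes, whereas the adaptors TRAM and TRIF lead to interferon β and, through its receptor, to antiviral genes. Macrophages stimulated in this way shift their metabolism towards glycolysis, rebuild their lipid pools and reduce functions of the resting cell such as the clearance of dead cells. YTHDF1 is a cytoplasmic protein that binds N6-methyladenosine (m6A) in mRNA and is known for effects on the translation and decay of its targets.

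The LPS libraries held 21546274 to 22017005 estimated counts each, and levels are given as CPM, counts relative to library size after trimmed mean (TMM) scaling. At this depth 3 counts correspond to 0.169 to 0.187 CPM. Ythdf1 itself did not separate the genotypes under LPS, with 212, 198 and 194 CPM in the WT LPS libraries and 196, 192 and 205 CPM in the KO-labelled ones (log2 fold change -0.03 ± 0.06, edgeR adjusted p = 0.724). These counts cover the whole gene (chromosome 2, 180904377 to 180920936, GRCm38.p6) and do not isolate the deleted stretch, so they do not check the label, and the libraries are called KO-labelled throughout. WT LPS replicate 1 stood apart from replicates 2 and 3 of its group, with a mean chi-square per gene of 24.4 and 31.2 against 2.96 between the latter pair, where 1 is sampling noise. KO LPS pairs lay between 5.67 and 15.5. The 10 general macrophage markers summed to 19376 to 21228 CPM over the WT and 19976 to 21470.1 CPM over the KO-labelled LPS libraries. Lyz2 was the largest part of that sum, and of the 10 markers 1 was higher and 3 lower. Mertk was at 225 to 246 CPM over the WT and 87.6 to 107 CPM over the KO-labelled LPS libraries. Csf1r was at 361 to 522 and 277 to 320 CPM in the same order, and Cd14 at 433 to 479 and 694 to 764 CPM. Skeletal muscle transcripts summed to 46.6 to 53.7 CPM over the WT and 1.90 to 2.52 CPM over the KO-labelled LPS libraries. Of the 14 markers, 7 were at 0 in all 3 KO-labelled LPS libraries, and Neb was the largest part of what was left (0.933 to 1.53 CPM). Under PBS that sum was 27.1 to 36.2 CPM over the WT and 0.567 to 31.7 CPM over the KO-labelled libraries, low in replicate 3 of the latter. Fewer cells of a type and less RNA per cell cannot be told apart in bulk libraries. Sums for fibroblast markers were 119 to 132 CPM over the WT and 56.95 to 69.5 CPM over the KO-labelled LPS libraries. They were also lower under PBS, at 75.1 to 88.6 CPM over the WT and 32.9 to 46.2 CPM over the KO-labelled libraries. Y-linked genes were detected in every library, and their sum was 49.0 to 58.9 CPM over the WT and 93.4 to 98.4 CPM over the KO-labelled LPS libraries. Nnt, a gene disrupted in the C57BL/6J substrain, was at 9.14 to 13.8 CPM over the WT and 18.0 to 18.6 CPM over the KO-labelled LPS libraries, and Ide at 26.1 to 27.9 CPM over the WT and 19.3 to 21.0 CPM over the KO-labelled LPS libraries, both singled out after their values were seen. The part of these background differences in the results was not tested.

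Under LPS, 4990 of 12064 genes tested differed between KO-labelled and WT libraries at an edgeR adjusted p below 0.05, which is 41.4% of them. Of these, 2663 genes (22.1%) were higher and 2327 (19.3%) lower in KO-labelled libraries. The split depended on scaling, since 1919 were higher and 3150 lower when library totals replaced TMM factors, a shift of -0.09 in the median of all genes on the log2 scale. Most differences were small, with a median absolute log2 fold change of 0.46 among the genes called. Changes past 1 log2 unit were found for 190 genes that were higher (1.57% of genes tested) and 380 that were lower (3.15%). All 3 KO-labelled LPS libraries lay on the same side of all 3 WT LPS libraries for 5498 genes (45.6% of genes tested), so a lack of overlap was common. Because so many genes passed the test, the counts for each function below are to be read against these background shares.

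**Figure D1:**
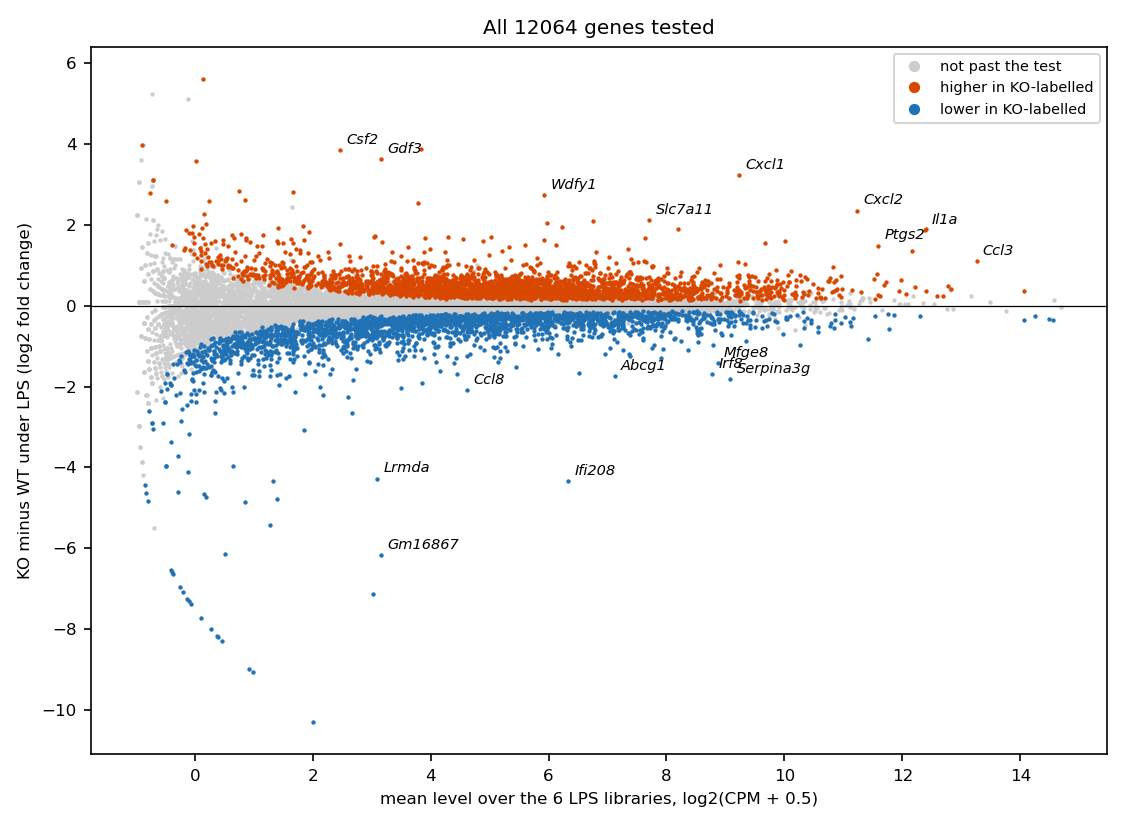
The log2 fold change of KO-labelled over WT libraries under LPS (y axis) is plotted against the mean level over the 6 LPS libraries, as log2(CPM + 0.5) (x axis), for all 12064 genes tested. Cxcl1 (3.23), Cxcl2 (2.35) and Il1a (1.87) stand out among abundant transcripts that were higher, Irf8 (-1.69), Serpina3g (-1.82) and Ifi208 (-4.34) among those that were lower.

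Genes for the recruitment of neutrophils had the largest median difference of the 34 function lists. In the list of CXC chemokines that draw neutrophils and of colony-stimulating factors (CSFs), 6 of 7 members tested were higher and 0 lower, with a median log2 fold change of 2.05 against 0.00 over all genes tested. Cxcl1, a ligand of the neutrophil receptor CXCR2, was at 108, 111 and 127 CPM in the WT LPS libraries and 1144, 1084 and 1029 CPM in the KO-labelled ones. Every KO-labelled library was thus above every WT library, by 9.40-fold on average (log2 fold change 3.23 ± 0.08, edgeR adjusted p = 9.38e-14). Cxcl2, a second CXCR2 ligand, was at 784, 734 and 846 CPM in the WT LPS libraries and 4138, 4038 and 3889 CPM in the KO-labelled ones (log2 fold change 2.35 ± 0.19, edgeR adjusted p = 4.26e-06). Cxcl3 of the same family was at 144, 103 and 124 CPM in the WT LPS libraries and 479, 460.3 and 437 CPM in the KO-labelled ones (log2 fold change 1.89 ± 0.13, edgeR adjusted p = 2.16e-07). For both, the KO-labelled libraries lay close together and clear of the WT range. Cxcl5, the remaining CXC member, was low and did not pass the test (1.73 to 1.13 CPM, log2 fold change -0.61 ± 0.32, edgeR adjusted p = 0.141), although it passed as lower after GC correction. The 7 neutrophil markers in the files summed to 90.2 to 93.1 CPM over the WT and 117 to 127 CPM over the KO-labelled LPS libraries, without overlap, and to 104 to 108 CPM over the WT and 153 to 156 CPM over the KO-labelled PBS libraries. Mmp8 made up most of that sum (76.4 to 79.9 CPM over the WT and 98.5 to 107 CPM over the KO-labelled LPS libraries), S100a9 and Retnlg were at or under 3 counts in every LPS library, and the 3 markers that could be tested were all higher in KO-labelled LPS libraries. The part of such cells was not tested.

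Csf2, which encodes GM-CSF, a growth factor for granulocytes and macrophages, was at 0.405, 0.626 and 0.903 CPM in the WT LPS libraries and 11.05, 9.61 and 7.65 CPM in the KO-labelled ones, so it was near the counting floor in WT and 14.5-fold higher in KO-labelled libraries (log2 fold change 3.86 ± 0.25, edgeR adjusted p = 2.83e-07). Csf3, which encodes G-CSF, the factor that raises neutrophil output from the marrow, was at 24.6, 22.3 and 25.8 CPM in the WT LPS libraries and 108, 104 and 89.5 CPM in the KO-labelled ones (log2 fold change 2.05 ± 0.09, edgeR adjusted p = 8.6e-11). Csf1, the macrophage growth factor, was at 207 ± 21.1 CPM in WT against 253 ± 15.2 CPM under the KO label (SD, n = 3), a log2 fold change of 0.29 ± 0.08. All 3 factors were higher without overlap between the LPS groups, a separation found in either direction for 45.6% of genes tested.

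Because Cxcl3, Cxcl1 and Cxcl2 lie in 1 stretch of chromosome 5 and were higher together, their promoters are shown with that of Il6, which lies elsewhere on the same chromosome. The windows run from 250 bases before to 50 bases after the start (RefSeq, GRCm38.p6), 5′ to 3′ on the strand of the gene. Capitals mark matches to a kB-type motif, GGNNTTTCC, or an AP-1 motif, TGANTCA, on either strand.
Cxcl3, chr5:90785851-90786150, plus strand: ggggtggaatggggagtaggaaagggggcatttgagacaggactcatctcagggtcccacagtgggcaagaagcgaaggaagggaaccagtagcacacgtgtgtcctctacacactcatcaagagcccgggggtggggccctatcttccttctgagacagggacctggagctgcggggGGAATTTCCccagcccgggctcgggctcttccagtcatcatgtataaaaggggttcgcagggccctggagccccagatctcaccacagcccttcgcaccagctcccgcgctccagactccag
Cxcl1, chr5:90890995-90891294, plus strand: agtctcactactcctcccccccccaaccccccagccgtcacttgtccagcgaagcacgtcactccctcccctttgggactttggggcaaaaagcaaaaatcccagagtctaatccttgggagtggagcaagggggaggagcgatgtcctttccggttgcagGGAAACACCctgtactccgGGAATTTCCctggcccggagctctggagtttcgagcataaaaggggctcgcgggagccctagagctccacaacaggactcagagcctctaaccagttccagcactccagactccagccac
Cxcl2, chr5:90903649-90903948, plus strand: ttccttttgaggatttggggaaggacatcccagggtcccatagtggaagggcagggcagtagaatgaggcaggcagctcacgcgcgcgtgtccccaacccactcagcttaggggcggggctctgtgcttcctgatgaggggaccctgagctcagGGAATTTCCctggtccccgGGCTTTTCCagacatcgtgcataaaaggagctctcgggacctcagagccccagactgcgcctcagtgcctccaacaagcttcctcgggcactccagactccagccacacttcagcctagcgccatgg
Il6, chr5:30012864-30013163, plus strand: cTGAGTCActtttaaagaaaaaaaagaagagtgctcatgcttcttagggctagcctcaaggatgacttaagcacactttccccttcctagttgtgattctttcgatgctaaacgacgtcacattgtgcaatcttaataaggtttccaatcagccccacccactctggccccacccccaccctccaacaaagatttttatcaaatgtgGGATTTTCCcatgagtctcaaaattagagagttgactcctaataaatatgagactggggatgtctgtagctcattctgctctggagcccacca
Cxcl1 and Cxcl2 each held 2 kB-type matches, Cxcl3 and Il6 1 each, and Il6 also 1 AP-1 match.

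A RefSeq window was found for 9651 of the genes tested, and a gene was counted once if any of its windows held the motif on either strand. Each motif was searched on its own, so a base could count in more than 1 of them. The kB-type motif was present for 19 of 131 (14.5%) of the genes higher by more than 1 log2 unit, for 21 of 302 (6.95%) of those lower by as much and for 712 of 9651 (7.38%) of all. The AP-1 motif was present for 15 of 131 (11.4%), 17 of 302 (5.63%) and 623 of 9651 (6.46%) in the same order. An interferon-response motif, AAANNGAAA, was found for 11 of 131 (8.4%), 27 of 302 (8.94%) and 955 of 9651 (9.89%). These shares describe letters in the windows and were not tested.

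**Figure D2:**
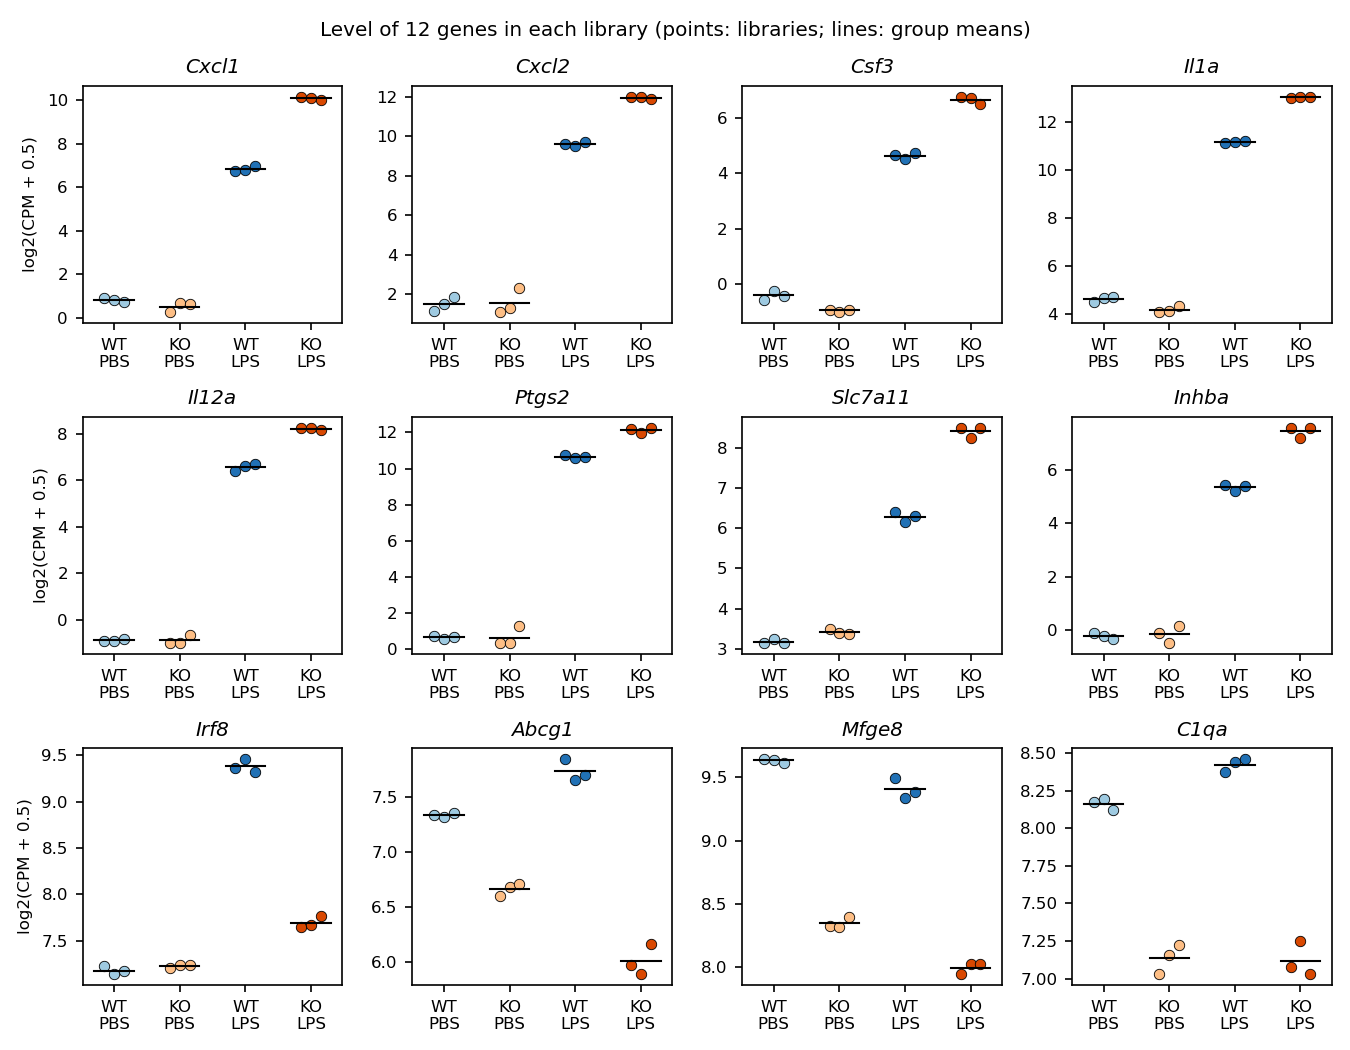
The level of 12 genes is plotted in each of the 12 libraries as log2(CPM + 0.5) (y axis, range differs by panel), grouped by genotype label and treatment (x axis), with points for libraries and lines for group means of 3. Cxcl1, Cxcl2, Csf3, Il1a, Il12a, Ptgs2, Slc7a11 and Inhba were above their WT LPS range in all 3 KO-labelled LPS libraries, whereas Irf8, Abcg1, Mfge8 and C1qa were below it.

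CC chemokines, which draw monocytes and lymphocytes, moved in both directions: 7 of 12 members tested were higher and 4 lower (median 0.37, 0.22 after GC correction). Ccl3, a ligand of CCR1, was at 5933, 6302 and 6450.4 CPM in the WT LPS libraries and 13141, 13741 and 13206 CPM in the KO-labelled ones (log2 fold change 1.10 ± 0.06, edgeR adjusted p = 1.3e-09). Ccl4 (0.79 ± 0.10), Ccl22 (0.67 ± 0.08), Ccl9 (0.58 ± 0.07) and Ccl5 (0.47 ± 0.12) were also higher on the log2 scale, and so was Ccl17 at a low level (0.702 to 2.11 CPM, 1.58 ± 0.33). Ccl5 did not pass with DESeq2. In contrast Ccl8, a monocyte chemokine, was at 25.4, 48.5 and 43.7 CPM in the WT LPS libraries and 9.94, 10.3 and 7.28 CPM in the KO-labelled ones and hence lower without overlap (log2 fold change -2.09 ± 0.21, edgeR adjusted p = 1.34e-05). Ccl6 (-0.98 ± 0.09), Ccl12 (-0.63 ± 0.19) and Ccl24 (-0.50 ± 0.12) were lower as well. The CCR2 ligands Ccl2 (0.27 ± 0.09) and Ccl7 (0.09 ± 0.09) had overlapping groups. The call for Ccl2 was lost under library totals, upper-quartile scaling, GC correction, the 6 LPS libraries alone and without WT LPS replicate 1 or KO-labelled replicate 1 or 2. That for Ccl12 was lost without the low-count filter and without WT LPS replicate 2 or 3 or KO-labelled replicate 1 or 3. Ccl7 did not pass, and its sign changed without WT LPS replicate 1 and after GC correction.

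Of the interleukin-1 family, 5 of 9 members tested were higher and 3 lower (median 0.46, 0.22 after GC correction). Il1a, an agonist of the receptor IL1R1, was at 2229, 2281 and 2381 CPM in the WT LPS libraries and 8309, 8416 and 8531 CPM in the KO-labelled ones, a 3.66-fold difference (log2 fold change 1.87 ± 0.07, edgeR adjusted p = 9.03e-12). Il1b, the second agonist, was at 2353, 2157 and 2389 CPM in the WT LPS libraries and 8777, 8682 and 8198 CPM in the KO-labelled ones (log2 fold change 1.89 ± 0.25, edgeR adjusted p = 0.000256). Il1rn, the antagonist that competes with both for their receptor, was higher by less (5826 ± 557 CPM in WT against 8206 ± 101.3 CPM under the KO label, SD, n = 3, log2 fold change 0.49 ± 0.07), as was Il18 (0.50 ± 0.10). The signalling receptor Il1r1 was lower (8.66 to 5.22 CPM, -0.73 ± 0.12), while its partner chain Il1rap was higher (37.9 to 52.1 CPM, 0.46 ± 0.06). Il18bp, which neutralises interleukin 18 (127 to 88.0 CPM, -0.53 ± 0.12), and the receptor chain Il18rap (1.83 to 0.883 CPM, -1.04 ± 0.28) were lower, and Il33 did not pass (2.43 to 2.05 CPM, -0.25 ± 0.22). Nlrp3, the inflammasome sensor needed to mature IL-1β, was higher (378 to 802 CPM, log2 fold change 1.08 ± 0.09, edgeR adjusted p = 1.13e-07).

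Nearly all cytokines of the interleukin 6, 12 and 10 families were higher: 9 of 10 members tested were higher and 0 lower, and the median was 1.11. Il6 was at 339, 445 and 451 CPM in the WT LPS libraries and 1250.1, 1237 and 1149.7 CPM in the KO-labelled ones (log2 fold change 1.56 ± 0.13, edgeR adjusted p = 1e-06). Il12a, the p35 chain of interleukin 12, was at 84.3, 97.1 and 103 CPM in the WT LPS libraries and 301, 308 and 292 CPM in the KO-labelled ones (log2 fold change 1.67 ± 0.09, edgeR adjusted p = 2.54e-09). Its partner Il12b, the p40 chain shared with interleukin 23, was higher too (779 to 1425 CPM, 0.87 ± 0.09). Il23a, which pairs with p40, was low and higher in KO-labelled libraries (0.798 to 2.69 CPM, 1.74 ± 0.33). Lif (3.65 to 12.05 CPM, 1.72 ± 0.17) and Osm (20.7 to 52.8 CPM, 1.35 ± 0.08), both of which signal through gp130, were higher. Il19 (6.81 to 11.4 CPM, 0.74 ± 0.16) and Il27 (1002 to 1225 CPM, 0.29 ± 0.08) were higher, the call for Il27 being lost under library totals, whereas Ebi3, the partner chain of Il27, did not pass (143 to 147 CPM, 0.04 ± 0.06), and its sign turned under upper-quartile and total scaling. The anti-inflammatory cytokine Il10 was higher (88.3 to 112 CPM, 0.35 ± 0.10), a call lost under upper-quartile and total scaling, after GC correction and without KO LPS replicate 1. The receptor chain for both interleukins 12 and 23, Il12rb1, was at 8.96, 10.5 and 10.8 CPM in the WT LPS libraries and 1.47, 1.59 and 1.74 CPM in the KO-labelled ones, lower in every KO-labelled library (log2 fold change -2.65 ± 0.18, edgeR adjusted p = 1.88e-08). When at least 10 counts were required in every library, 3 members were left to test and 2 of them were higher.

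Among the LPS receptor, its adaptors and kinases and the NF-κB subunits, 18 of 29 members tested were higher and 1 lower (median 0.32). Peli1, a ubiquitin ligase of the TRIF branch, was at 259.8, 268 and 263 CPM in the WT LPS libraries and 472, 471 and 475 CPM in the KO-labelled ones (log2 fold change 0.84 ± 0.06, edgeR adjusted p = 4.1e-08). The adaptor Tirap (33.5 to 58.3 CPM, 0.80 ± 0.08), the co-receptor Cd14 (459.9 to 735 CPM, 0.68 ± 0.06) and the subunit precursor Nfkb1 (594 to 902 CPM, 0.60 ± 0.09) were also higher. Tlr2, which senses bacterial lipoproteins and was picked after its values were seen, was at 709, 613 and 623 CPM in the WT LPS libraries and 1169, 1189 and 1236 CPM in the KO-labelled ones (log2 fold change 0.89 ± 0.06, edgeR adjusted p = 4.58e-08). For kinases of the ERK, JNK and p38 cascades, 12 of 22 members tested were higher and 1 lower (median 0.19, 0.10 under library totals and 0.13 after GC correction), with Map3k5 (0.79 ± 0.10) and Mapk8 (0.75 ± 0.12) among those higher.

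Of the inhibitors that inflammatory signalling induces against itself, 16 of 24 members tested were higher and 3 lower (median 0.31). Cish, which restrains cytokine receptors, was at 26.8, 23.9 and 24.0 CPM in the WT LPS libraries and 70.8, 64.9 and 77.5 CPM in the KO-labelled ones (log2 fold change 1.51 ± 0.10, edgeR adjusted p = 1.69e-08). Socs2 of the same family was low and higher in KO-labelled libraries (1.52 to 4.68 CPM, 1.62 ± 0.24). Dusp16, a phosphatase for JNK, and Irak3, a brake on MyD88 signalling, differed by 0.83 ± 0.08 and 0.73 ± 0.06. Transcription factors of the AP-1 and MAF families were divided: 5 of 15 members tested were higher and 5 lower (median 0.01, -0.08 under library totals), with 1 lower after GC correction and 3 without KO LPS replicate 1 or 3. Fosl2 was at 135, 106 and 113 CPM in the WT LPS libraries and 257, 206 and 283 CPM in the KO-labelled ones (log2 fold change 1.08 ± 0.11, edgeR adjusted p = 2.15e-06), and Fosl1 (3.41 to 5.89 CPM, 0.79 ± 0.17) and Maff (10.5 to 15.9 CPM, 0.60 ± 0.11) were higher. Jun itself was at 82.2, 72.0 and 72.1 CPM in the WT LPS libraries and 47.9, 50.6 and 49.7 CPM in the KO-labelled ones (log2 fold change -0.61 ± 0.06, edgeR adjusted p = 1.89e-06).

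**Figure D3:**
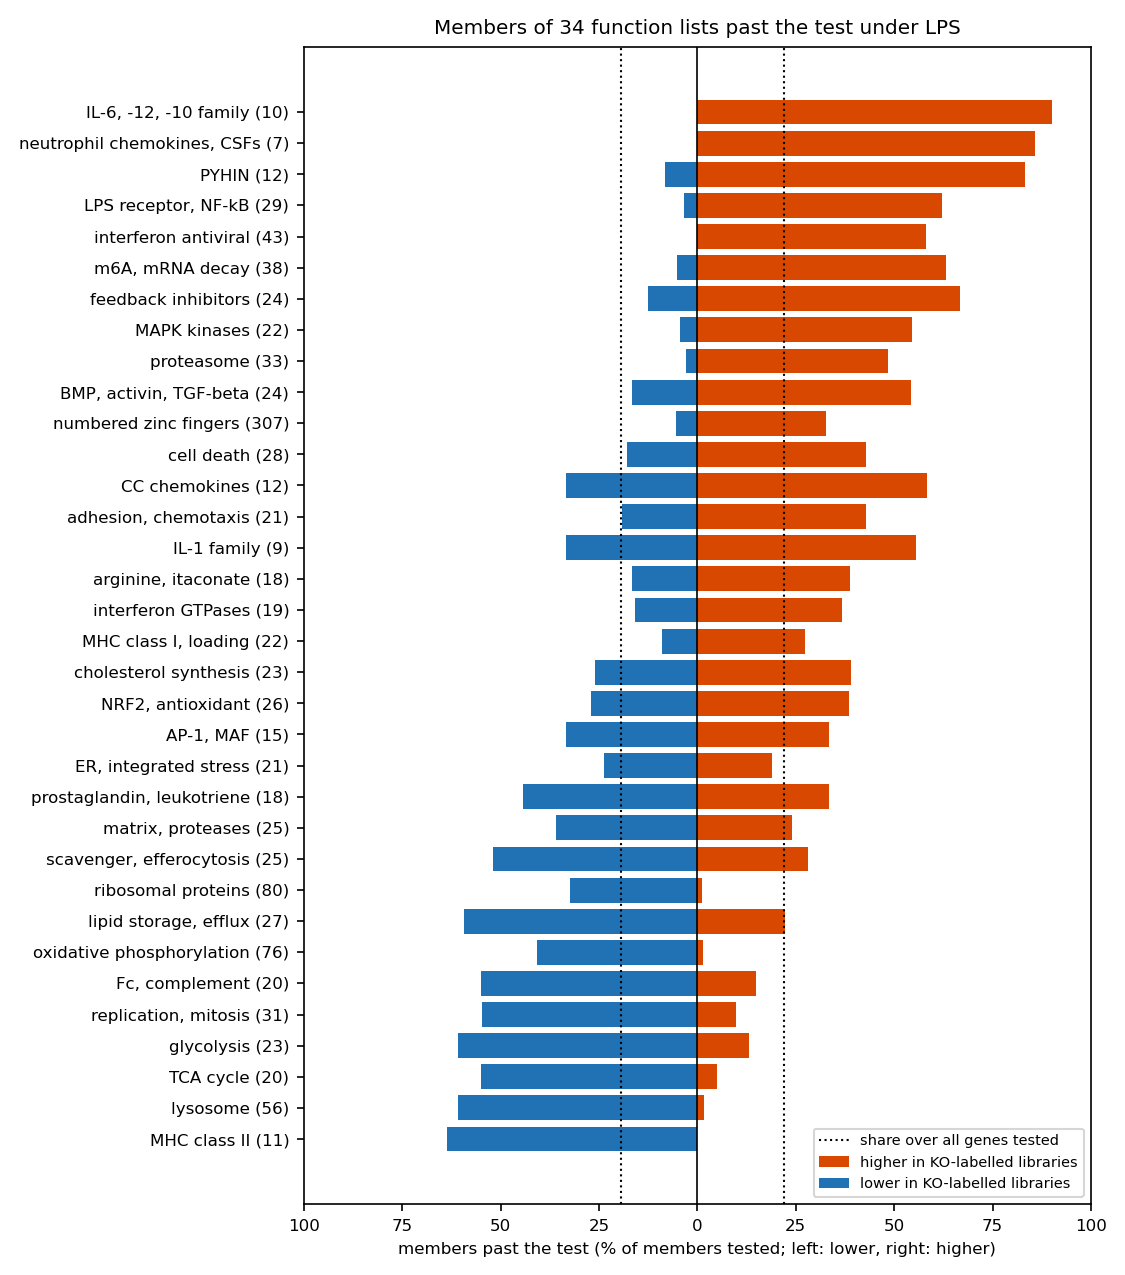
For each of 34 function lists (y axis, members tested in parentheses), bars give the percentage of members past the test that were higher (right) or lower (left) in KO-labelled LPS libraries (x axis), and dotted lines the shares over all genes tested, 22.1% and 19.3%. The interleukin-6 family (9 of 10), neutrophil chemokines with CSFs (6 of 7) and PYHIN genes (10 of 12) lie at the top, and MHC class II (7 of 11 lower), lysosome (34 of 56 lower) and the tricarboxylic acid cycle (11 of 20 lower) at the bottom.

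Antiviral genes induced by interferon were in part higher by a small amount: 25 of 43 members tested were higher and 0 lower (median 0.33, all members between -0.09 and 0.72). The number that were higher was 18 under library totals (median 0.245), and 20 to 28 when single libraries were left out. Oas2, an enzyme that makes the activator of RNase L, was at 135, 140.5 and 147 CPM in the WT LPS libraries and 245, 218 and 234 CPM in the KO-labelled ones (log2 fold change 0.72 ± 0.09, edgeR adjusted p = 1.39e-05). Slfn8 (0.70 ± 0.08), Samd9l (0.67 ± 0.09) and Parp14 (0.65 ± 0.12) were close behind. PYHIN genes, which encode sensors of DNA, were mostly higher: 10 of 12 members tested were higher and 1 lower (median 0.60). Ifi213 (217 to 349 CPM, 0.68 ± 0.09) and Ifi205 (1365 to 2098 CPM, 0.62 ± 0.10) were higher, as was Ifi206 (0.73 ± 0.18), which did not pass with DESeq2. Ifi203 (0.62 ± 0.08), Ifi211 (0.61 ± 0.10), Ifi204 (0.60 ± 0.08), Ifi209 (0.59 ± 0.09) and Ifi207 (0.48 ± 0.07) were higher by similar log2 amounts. Mndal (0.47 ± 0.08) and Aim2, the inflammasome sensor of DNA (0.23 ± 0.07), lost their calls after GC correction, and Ifi214 did not pass (0.23 ± 0.14). The call for Aim2 was also lost with upper-quartile or total scaling, in the 6 LPS libraries alone and without KO LPS replicate 3. Ifi208, in contrast, was at 144, 164 and 150.4 CPM in the WT LPS libraries and 7.98, 8.02 and 6.59 CPM in the KO-labelled ones, a 20.3-fold lower level (log2 fold change -4.34 ± 0.10, edgeR adjusted p = 4.18e-14). It lies on chromosome 1, 173673628 to 173698393 (GRCm38.p6). Counts of all 12 PYHIN genes were fractional in the 6 LPS libraries, so reads shared among them were divided by estimation and each of these values is uncertain.

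Of the interferon-inducible GTPases, 7 of 19 members tested were higher and 3 lower, and 4 were higher after GC correction, under library totals or without KO LPS replicate 1. Gbp7 was higher (372 to 587 CPM, 0.66 ± 0.06), whereas Tgtp1 (46.5 to 27.5 CPM, -0.76 ± 0.13) and Iigp1 (151 to 105 CPM, -0.52 ± 0.09) were lower. Irf8, a transcription factor of macrophage and dendritic cell identity that was picked after its values were seen, was at 657, 705 and 639 CPM in the WT LPS libraries and 200.5, 203 and 217 CPM in the KO-labelled ones, 3.23-fold lower (log2 fold change -1.69 ± 0.06, edgeR adjusted p = 5.87e-12). Tmem173, which encodes STING, the adaptor for cytosolic DNA and also picked afterwards, was at 43.7, 49.9 and 46.3 CPM in the WT LPS libraries and 25.8, 23.6 and 23.9 CPM in the KO-labelled ones (log2 fold change -0.93 ± 0.07, edgeR adjusted p = 5.91e-08).

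For MHC class II, 0 of 11 members tested were higher and 7 lower (median -0.38, -0.23 after GC correction), and 4 were lower after GC correction. Cd74, the invariant chain, was at 923, 818 and 807 CPM in the WT LPS libraries and 558, 607 and 619 CPM in the KO-labelled ones (log2 fold change -0.51 ± 0.08, edgeR adjusted p = 5.53e-05). H2-Eb1 (92.5 to 62.6 CPM, -0.56 ± 0.07), H2-Aa (178 to 127 CPM, -0.50 ± 0.08) and the loading factor H2-DMb1 (35.4 to 24.4 CPM, -0.54 ± 0.07) were lower. H2-Ab1 (-0.27 ± 0.07), H2-DMa (-0.29 ± 0.08) and the transcription factor Rfxank (-0.38 ± 0.12) were lower too, and lost their calls after GC correction, Rfxank also without replicate 3 of either LPS group. Ciita, the class II transactivator (1.37 to 1.34 CPM, -0.04 ± 0.30), Rfx5 (-0.10 ± 0.11) and Rfxap (0.19 ± 0.15) did not pass, and H2-DMb2 was at or near the floor of 3 counts in both groups. B cells also carry these molecules, and the 8 B cell markers summed to 74.3 to 90.5 CPM over the WT and 47.9 to 53.3 CPM over the KO-labelled LPS libraries. Their part in the difference was not tested. For MHC class I and peptide loading, 6 of 22 members tested were higher and 2 lower, where the number that were higher was 12 after GC or length correction, 3 in the 6 LPS libraries alone and 2 under upper-quartile or total scaling. As fitted the shares were 27.3% and 9.09%, against 22.1% and 19.3% over all genes tested. H2-Q4 was higher (280.1 to 421 CPM, 0.59 ± 0.07), whereas the chaperone Calr was lower (1855 to 1174 CPM, -0.66 ± 0.05).

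Among scavenger receptors and receptors for dead cells, 7 of 25 members tested were higher and 13 lower (median -0.40). Mfge8, which bridges dead cells to integrins, was at 723, 648 and 668 CPM in the WT LPS libraries and 245, 259 and 259 CPM in the KO-labelled ones (log2 fold change -1.42 ± 0.06, edgeR adjusted p = 4.22e-11). Gas6, the bridging ligand of MerTK, was at 27.2, 22.1 and 22.7 CPM in the WT LPS libraries and 9.02, 8.88 and 9.45 CPM in the KO-labelled ones (log2 fold change -1.40 ± 0.09, edgeR adjusted p = 7.3e-09). Timd4, a receptor for phosphatidylserine on resident macrophages, was at 5.03, 7.12 and 7.78 CPM in the WT LPS libraries and 1.72, 1.35 and 1.24 CPM in the KO-labelled ones (log2 fold change -2.21 ± 0.22, edgeR adjusted p = 1.5e-06), and the markers of resident peritoneal macrophages, Timd4 among them, summed to 18.7 to 22.7 CPM over the WT and 10.7 to 12.5 CPM over the KO-labelled LPS libraries. Marco, a scavenger receptor for bacteria, was at 28.6, 31.3 and 37.5 CPM in the WT LPS libraries and 9.02, 10.6 and 10.3 CPM in the KO-labelled ones (log2 fold change -1.701 ± 0.13, edgeR adjusted p = 6.16e-08). All 4 were thus lower in each KO-labelled library than in any WT library.

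For Fc receptors and complement, 3 of 20 members tested were higher and 11 lower (median -0.24). C1qa, a chain of C1q, was at 331, 346 and 352 CPM in the WT LPS libraries and 134, 152 and 130.2 CPM in the KO-labelled ones (log2 fold change -1.30 ± 0.07, edgeR adjusted p = 1.18e-09). C1qc, a second chain, was at 427, 454 and 469.9 CPM in the WT LPS libraries and 221, 220.4 and 194 CPM in the KO-labelled ones (log2 fold change -1.09 ± 0.06, edgeR adjusted p = 3.42e-09). Cfp, which encodes properdin, the stabiliser of the alternative pathway convertase, was lower (227 to 99.8 CPM, -1.18 ± 0.06). Of lysosomal genes, 1 of 56 members tested were higher and 34 lower (median -0.26), and 38 were lower after GC correction. The proteases Ctsl (3501 ± 461 CPM in WT against 1976 ± 98.8 CPM under the KO label, SD, n = 3, -0.83 ± 0.08) and Ctsk (208 to 125 CPM, -0.73 ± 0.07) were lower.

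In the list for lipid storage, lipolysis and cholesterol efflux, 6 of 27 members tested were higher and 16 lower (median -0.34, -0.23 after GC correction). The number that were lower was 13 of 26 after GC correction, 11 of 25 in the 6 LPS libraries alone and 11 without KO LPS replicate 2. Abcg1, an exporter of cholesterol to lipoproteins, was at 231, 201 and 209 CPM in the WT LPS libraries and 62.4, 58.8 and 71.1 CPM in the KO-labelled ones (log2 fold change -1.74 ± 0.07, edgeR adjusted p = 8.36e-11). Mgll, a lipase for monoacylglycerols, was at 66.9, 60.7 and 64.2 CPM in the WT LPS libraries and 18.9, 23.9 and 23.9 CPM in the KO-labelled ones (log2 fold change -1.52 ± 0.08, edgeR adjusted p = 2.31e-09). Their levels were lower by 3.33-fold and 2.87-fold. Genes of cholesterol synthesis were divided, with 9 of 23 members tested higher and 6 lower (median 0.01, -0.08 under library totals). Idi1 was higher (15.8 to 26.0 CPM, 0.72 ± 0.13) and Dhcr7, which acts in the last step, lower (10.2 to 4.43 CPM, -1.20 ± 0.10).

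Of the enzymes and receptors for prostaglandins and leukotrienes, 6 of 18 members tested were higher and 8 lower (median -0.23, -0.13 after GC correction and -0.13 without KO LPS replicate 1). Ptgs2, the inducible cyclooxygenase, was at 1718, 1528 and 1605 CPM in the WT LPS libraries and 4710.0, 4015 and 4877 CPM in the KO-labelled ones (log2 fold change 1.49 ± 0.12, edgeR adjusted p = 9.67e-07). Ptger2, a receptor for prostaglandin E2, was higher (2.19 to 3.92 CPM, 0.84 ± 0.16), and Ptgis, prostacyclin synthase, lower (11.1 to 6.18 CPM, -0.84 ± 0.15). The number that were lower was 5 without WT LPS replicate 3 and 5 without KO LPS replicate 3.

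For glycolysis and lactate export, 3 of 23 members tested were higher and 14 lower (median -0.31, -0.13 after GC correction). Tpi1 was at 145, 125 and 131 CPM in the WT LPS libraries and 74.0, 82.4 and 77.1 CPM in the KO-labelled ones (log2 fold change -0.78 ± 0.07, edgeR adjusted p = 2.28e-07), and Ldha, which makes lactate, was lower too (547 to 359 CPM, -0.60 ± 0.06). The glucose transporter Slc2a1 went the other way, at 117, 94.7 and 101.2 CPM in the WT LPS libraries and 181, 173 and 181 CPM in the KO-labelled ones (log2 fold change 0.78 ± 0.07, edgeR adjusted p = 3.18e-07). For the tricarboxylic acid cycle, 1 of 20 members tested were higher and 11 lower (median -0.26, -0.14 after GC correction and -0.16 without WT LPS replicate 1), and 7 were lower after GC correction. Idh2 (34.4 to 19.9 CPM, -0.79 ± 0.08) and Mdh1 (70.8 to 49.5 CPM, -0.52 ± 0.07) were lower.

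Subunits of oxidative phosphorylation differed by a small margin, with 1 of 76 members tested higher and 31 lower (median -0.18, -0.12 after GC correction and -0.08 after length correction). The number that were lower was 17 after GC correction, 18 in the 6 LPS libraries alone, and ranged from 21 to 43 when single libraries were left out. Cox5a was at 99.3, 107 and 108 CPM in the WT LPS libraries and 76.0, 81.0 and 75.7 CPM in the KO-labelled ones (log2 fold change -0.43 ± 0.06, edgeR adjusted p = 3.23e-05). Uqcr11 (-0.44 ± 0.11) did not pass after GC correction. For ribosomal proteins, 1 of 80 members tested were higher and 26 lower (median -0.15, -0.24 under library totals, -0.23 without WT LPS replicate 1 and -0.08 without KO LPS replicate 3), which became 8 higher and 16 lower with a median of -0.01 after length correction. Rps28 (-0.49 ± 0.07) and Rpl12 (-0.44 ± 0.08) were lower. The number that were lower was 43 without WT LPS replicate 1, 16 and 14 without replicates 2 and 3 of that group, 17 and 14 without KO LPS replicates 1 and 3, and 15 in the 6 LPS libraries alone.

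Slc7a11, the cystine transporter that feeds glutathione synthesis, was at 83.9, 71.1 and 79.0 CPM in the WT LPS libraries and 358, 301 and 361 CPM in the KO-labelled ones (log2 fold change 2.12 ± 0.08, edgeR adjusted p = 1.7e-11). In the list for nitric oxide, arginine and itaconate that holds it, 7 of 18 members tested were higher and 3 lower. Slc7a2, an arginine transporter (1487 to 2489 CPM, 0.74 ± 0.07), and Arg2, the mitochondrial arginase (6.35 to 13.4 CPM, 1.08 ± 0.14), were higher. Of NRF2 targets and antioxidant genes, 10 of 26 members tested were higher and 7 lower (median 0.02, -0.06 under library totals). The members that were higher included both chains of the glutathione-forming enzyme, Gclc (9.20 to 19.5 CPM, 1.08 ± 0.10) and Gclm (31.9 to 53.9 CPM, 0.76 ± 0.07), as well as the reductases Gsr (157 to 258 CPM, 0.71 ± 0.05) and Txnrd1 (259 to 493 CPM, 0.93 ± 0.07).

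For constitutive proteasome subunits, 16 of 33 members tested were higher and 1 lower (median 0.18, 0.09 under library totals and 0.12 without WT LPS replicate 1), but 6 were higher under library totals, 7 with upper-quartile scaling or in the 6 LPS libraries alone, and 9 without KO LPS replicate 1 or without KO LPS replicate 2. Psmd1 was at 125, 120.2 and 120.5 CPM in the WT LPS libraries and 165, 165 and 167 CPM in the KO-labelled ones (log2 fold change 0.45 ± 0.05, edgeR adjusted p = 5.25e-06), while Psmc6 (0.51 ± 0.08) did not pass after GC correction. For the m6A machinery and mRNA decay factors, 24 of 38 members tested were higher and 2 lower (median 0.23, 0.14 under library totals), and 12 were higher after GC correction. Zfp36l1, which destabilises AU-rich mRNAs, was at 23.3, 21.1 and 21.3 CPM in the WT LPS libraries and 37.3, 34.1 and 35.5 CPM in the KO-labelled ones (log2 fold change 0.70 ± 0.06, edgeR adjusted p = 5.64e-07). Rc3h1 (0.54 ± 0.08) and Rc3h2 (0.63 ± 0.08), which encode the Roquin proteins that act on cytokine mRNAs, were higher. Mettl14 (0.58 ± 0.15), a subunit of the m6A writer, did not pass after GC correction. Among 307 numbered zinc finger genes tested, 100 were higher and 17 lower (median 0.28, 0.18 after GC correction), and 67 and 10 after GC correction, and 10 and 11 were lower without KO LPS replicates 1 and 2.

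Of genes of endoplasmic reticulum and integrated stress, 4 of 21 members tested were higher and 5 lower (8 lower under library totals). These shares, 19.0% and 23.8%, were near those over all genes tested (22.1% and 19.3%). Log2 fold changes of the members ran from -1.11 to 0.80. The reticulum proteins Sdf2l1 (48.8 to 22.6 CPM, -1.11 ± 0.07), Pdia4 (81.7 to 47.5 CPM, -0.78 ± 0.07) and Creld2 (23.4 to 14.98 CPM, -0.64 ± 0.09) were each lower without overlap. Genes of DNA replication and mitosis were more often lower than higher: 3 of 31 members tested were higher and 17 lower (median -0.48). Their median under PBS was -0.99. By the interaction, the difference was more positive under LPS for 8 members and more negative for 1. Aurkb (1.92 to 0.779 CPM, -1.29 ± 0.25), Tk1 (1.39 to 0.574 CPM, -1.26 ± 0.33) and Bub1 (0.685 to 0.287 CPM, -1.24 ± 0.39) were lower, Bub1 losing its call without WT LPS replicate 1 or 3 or KO-labelled replicate 3. Mki67, a marker of cycling cells, was the opposite, at 18.4, 12.4 and 12.4 CPM in the WT LPS libraries and 47.6, 35.4 and 48.1 CPM in the KO-labelled ones (log2 fold change 1.61 ± 0.19, edgeR adjusted p = 4.48e-05). Of genes for cell death and its control, 12 of 28 members tested were higher and 5 lower (median 0.13, 0.04 under library totals, 0.24 after length correction and 0.09 without WT LPS replicate 1), with 3 lower without WT LPS replicate 3 or KO-labelled replicate 1. Log2 fold changes in this divided list ran from -1.68 to 1.08, and the pro-apoptotic Bcl2l11 was higher (22.5 to 35.4 CPM, 0.65 ± 0.08).

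Of the BMP, activin and TGF-β family list, 13 of 24 members tested were higher and 4 lower (median 0.39, 0.24 after GC correction). Inhba, the activin A subunit, was at 42.8, 36.3 and 41.6 CPM in the WT LPS libraries and 189, 145 and 187 CPM in the KO-labelled ones (log2 fold change 2.11 ± 0.11, edgeR adjusted p = 1.76e-09). Gdf15, a stress-induced factor, was at 94.0, 85.3 and 89.1 CPM in the WT LPS libraries and 230.4, 247 and 229 CPM in the KO-labelled ones (log2 fold change 1.40 ± 0.06, edgeR adjusted p = 8.8e-11). Gdf3 was at 1.39, 1.14 and 1.24 CPM in the WT LPS libraries and 14.4, 16.7 and 15.6 CPM in the KO-labelled ones (log2 fold change 3.63 ± 0.12, edgeR adjusted p = 5.87e-12). Id1, a target of BMP signalling, was low but higher in KO-labelled libraries (2.57 to 7.41 CPM, 1.53 ± 0.14).

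Adhesion and chemotactic receptors were divided, with 9 of 21 members tested higher and 4 lower. The chemokine receptor Ccr1 (145 to 228 CPM, 0.65 ± 0.09) and the formyl peptide receptor Fpr1 (267 to 391 CPM, 0.55 ± 0.10) were higher. Itgax, which encodes CD11c, was at 360.5, 306 and 332 CPM in the WT LPS libraries and 153, 149 and 176 CPM in the KO-labelled ones (log2 fold change -1.06 ± 0.07, edgeR adjusted p = 2.01e-08). Of matrix genes, proteases and their inhibitors, 6 of 25 members tested were higher and 9 lower (median -0.23). Serpinb2, an inhibitor of plasminogen activators, was higher (78.8 to 182 CPM, 1.21 ± 0.09), and the macrophage elastase Mmp12 lower (1641 to 832 CPM, -0.98 ± 0.09). Serpina3g was at 732, 915 and 887 CPM in the WT LPS libraries and 226, 249 and 245 CPM in the KO-labelled ones (log2 fold change -1.82 ± 0.10, edgeR adjusted p = 2.71e-09), and its neighbour Serpina3i was lower from a low level (9.30 to 2.61 CPM, -1.83 ± 0.17). Counts of the Serpina3 genes were fractional in all 6 libraries. The fibroblast sum given above moved the same way, and the part of such cells was not tested.

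Outside the lists above, further genes with large differences were Adora2b, an adenosine receptor, at 31.5, 31.5 and 28.8 CPM in the WT LPS libraries and 129, 114 and 115 CPM in the KO-labelled ones (log2 fold change 1.96 ± 0.09, edgeR adjusted p = 1.87e-10), and Has1, a hyaluronan synthase (3.86 to 22.6 CPM, 2.55 ± 0.12). Slc1a2, a glutamate transporter, was low and higher in KO-labelled libraries (1.45 to 5.18 CPM, 1.84 ± 0.21). Wdfy1 (chromosome 1, 79702262 to 79776143) was at 14.1, 16.6 and 16.5 CPM in the WT LPS libraries and 109, 102 and 101.5 CPM in the KO-labelled ones (log2 fold change 2.73 ± 0.07, edgeR adjusted p = 2.49e-13), and the predicted gene Gm41885 differed by 3.89 ± 0.39 from a low level (1.73 to 25.7 CPM). Counts of Wdfy1, Gm41885, Gdf3, Cxcl2, Cxcl3, Inhba, Slc7a11 and Slc1a2 were fractional in all 6 LPS libraries. Wdfy1 belongs to a list of 5 genes known to differ between C57BL/6 substrains, beside Nnt and Ide above. Of the 5, 2 were higher, 2 lower and 1 not called under LPS. Fgfbp3 was at 2.89 to 4.12 CPM over the WT and 1.29 to 1.55 CPM over the KO-labelled LPS libraries. Entpd4 overlapped (3.13 to 4.85 and 0 to 5.40 CPM in that order). Ide overlapped under PBS, at 48.5 to 50.7 CPM over the WT and 48.6 to 52.3 CPM over the KO-labelled libraries.

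Lower were Gm16867, at 17.4, 18.1 and 14.7 CPM in the WT LPS libraries and 0.368, 0.122 and 0.187 CPM in the KO-labelled ones (log2 fold change -6.18 ± 0.26, edgeR adjusted p = 8.11e-11), and Lrmda, linked to pigment cell differentiation, at 15.8, 15.3 and 14.7 CPM in the WT LPS libraries and 0.798, 0.612 and 0.933 CPM in the KO-labelled ones (log2 fold change -4.28 ± 0.18, edgeR adjusted p = 9.22e-11). Gm16867 was close to the floor of 3 counts in KO-labelled libraries. Tmem267 (5.55 to 0.655 CPM, -3.07 ± 0.26), Tmem254b (9.23 to 1.93 CPM, -2.25 ± 0.17), the carboxylate transporter Slc13a3 (17.4 to 4.26 CPM, -2.03 ± 0.15) and Rubcnl, a factor in autophagosome maturation (22.1 to 5.87 CPM, -1.91 ± 0.13), were also lower. The muscle myosin Myh4 had counts of 158, 95 and 114 in WT LPS libraries and 0, 0 and 0 in the KO-labelled ones, and the muscle actin Acta1 counts of 278, 260 and 260 in WT LPS libraries and 1, 1 and 3 in the KO-labelled ones. All KO-labelled LPS libraries were thus at or under 3 counts, and their levels were at least 37.8-fold and 82.2-fold lower against that floor per library. The call for Myh4 was lost without WT LPS replicate 1 and with the replicate block (edgeR adjusted p = 0.0541 and 0.0611). Counts of Gm16867, Acta1 and Ifi208 were fractional in all 6 LPS libraries and those of Myh4 and Tmem254b in 3. Des, which encodes the muscle filament protein desmin, was lower (6.20 to 1.54 CPM, -2.01 ± 0.25). Myh4 and Acta1 are members of the muscle sum given above, so they are not separate from it, and the part of muscle RNA was not tested.

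To ask whether these differences were particular to LPS, the KO minus WT difference under LPS was set against that under PBS in the same fit. The difference was more positive under LPS for 1180 genes (9.78% of genes tested) and more negative for 996 (8.26%). The antiviral list moved broadly, as 35 of its 43 members were more positive under LPS, and its median moved from -0.35 under PBS to 0.33 under LPS. Of CC chemokines, 9 of 12 were more positive, with medians of -1.24 and 0.37. Ccl5 was lower in KO-labelled libraries under PBS (-2.03 ± 0.19) and higher under LPS (0.47 ± 0.12), with an interaction of 2.50 ± 0.22, edgeR adjusted p = 7.92e-06. Cxcl1 did not pass under PBS (-0.43 ± 0.19, interaction 3.66 ± 0.21, edgeR adjusted p = 2.88e-08). Il1a was lower in KO-labelled libraries under PBS (-0.46 ± 0.07, interaction 2.34 ± 0.10, edgeR adjusted p = 8.31e-10).

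Irf8 did not pass the test under PBS (144 ± 4.47 CPM in WT against 149 ± 1.49 CPM under the KO label, SD, n = 3), and the interaction was -1.74 ± 0.08, edgeR adjusted p = 1.38e-09. Abcg1 was lower under both treatments and more so under LPS (PBS -0.68 ± 0.07, interaction -1.06 ± 0.10, edgeR adjusted p = 4.06e-06). Several genes also differed in the same direction under PBS, with no interaction past the threshold: Mfge8 (-1.29 ± 0.06 under PBS), Itgax (-1.02 ± 0.07), Mgll (-1.74 ± 0.08), Timd4 (-1.93 ± 0.51), Lrmda (-4.10 ± 0.16) and Wdfy1 (2.59 ± 0.07). Timd4 was near the counting floor under PBS (0.322 to 0.542 CPM over the WT and 0.0351 to 0.177 CPM over the KO-labelled libraries), so its PBS difference and interaction are uncertain. Marco was lower by more under PBS (-3.13 ± 0.18) than under LPS (interaction 1.43 ± 0.23, edgeR adjusted p = 0.000566). Of the 56 lysosomal and 11 MHC class II genes tested, 15 and 2 respectively had a more negative difference under LPS. A more positive one was found for 2 and 0. The lysosomal median was -0.10 under PBS and -0.26 under LPS. For MHC class II it was -0.49 under PBS and -0.38 under LPS, so that list was already lower without LPS. An interaction that misses the threshold does not show that 2 differences are equal.

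**Figure D4:**
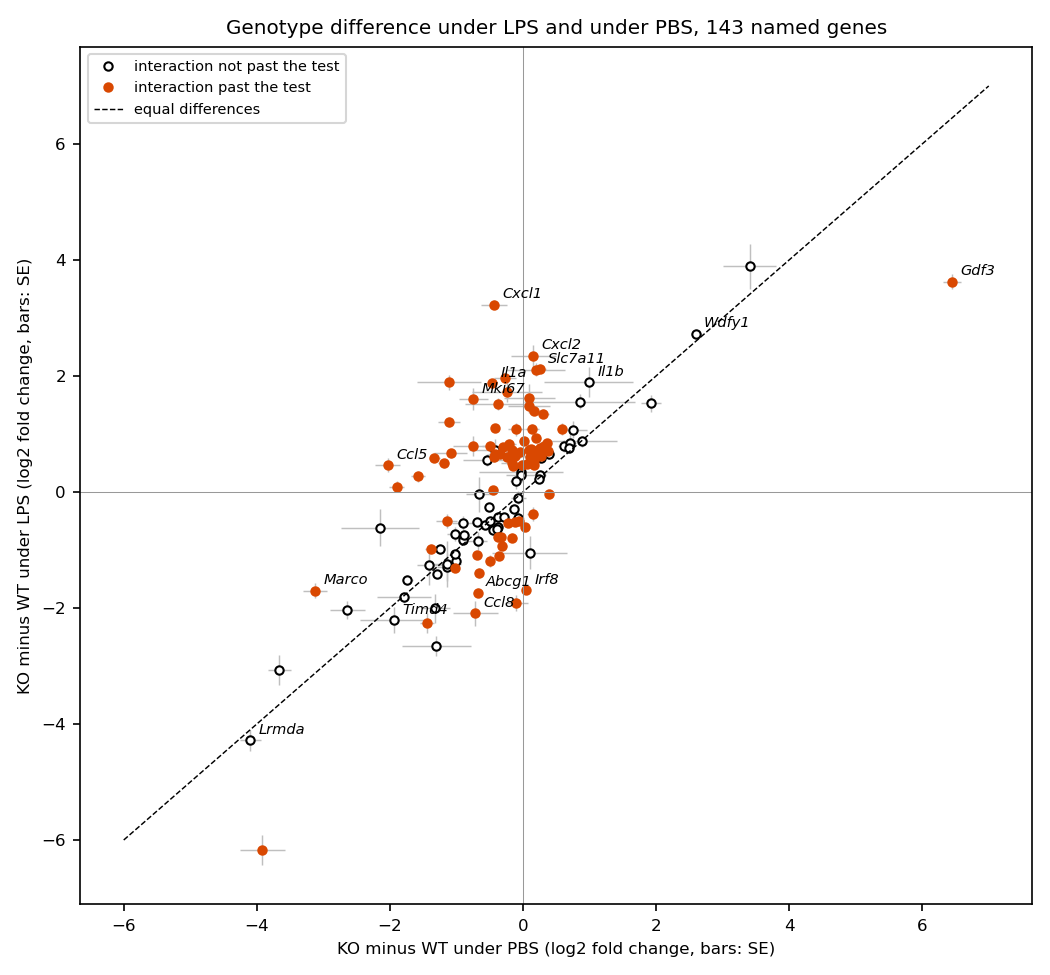
The KO minus WT log2 fold change under LPS (y axis) is plotted against that under PBS (x axis) for 143 named genes with counts above the floor in every group, with standard errors as bars and filled points for the 87 whose interaction passed the test. Cxcl1, Cxcl2 and Il1a lie high above the line of equal differences and Irf8 below it, whereas Wdfy1 and Lrmda lie close to it.

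A trend with transcript composition ran through the whole comparison. Across 11886 genes with a GENCODE transcript, the log2 fold change under LPS fell with GC content (Spearman's rho -0.37, over genes that are not independent and share the 6 libraries). Its median was 0.26 in the lowest of 5 equal bins of GC content and -0.15 in the highest. In these bins, 45.1% and 8.16% of genes were higher, and 6.14% and 30.0% lower. With transcript length the medians ran from -0.08 to 0.08. A similar trend with GC was present under PBS (rho -0.28), and the deviation of WT LPS replicate 1 from its group followed both GC content (0.35) and length (0.39). The part of GC content and length in single calls was not tested beyond refitting with them as offsets. After GC correction 4535 genes were called and 68.5% of the original calls held with the same direction. The median of the neutrophil list was then 2.16 and that of the interleukin-6 family 1.01, while that of PYHIN genes was 0.28 and that of the GTPases 0.03.

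**Figure D5:**
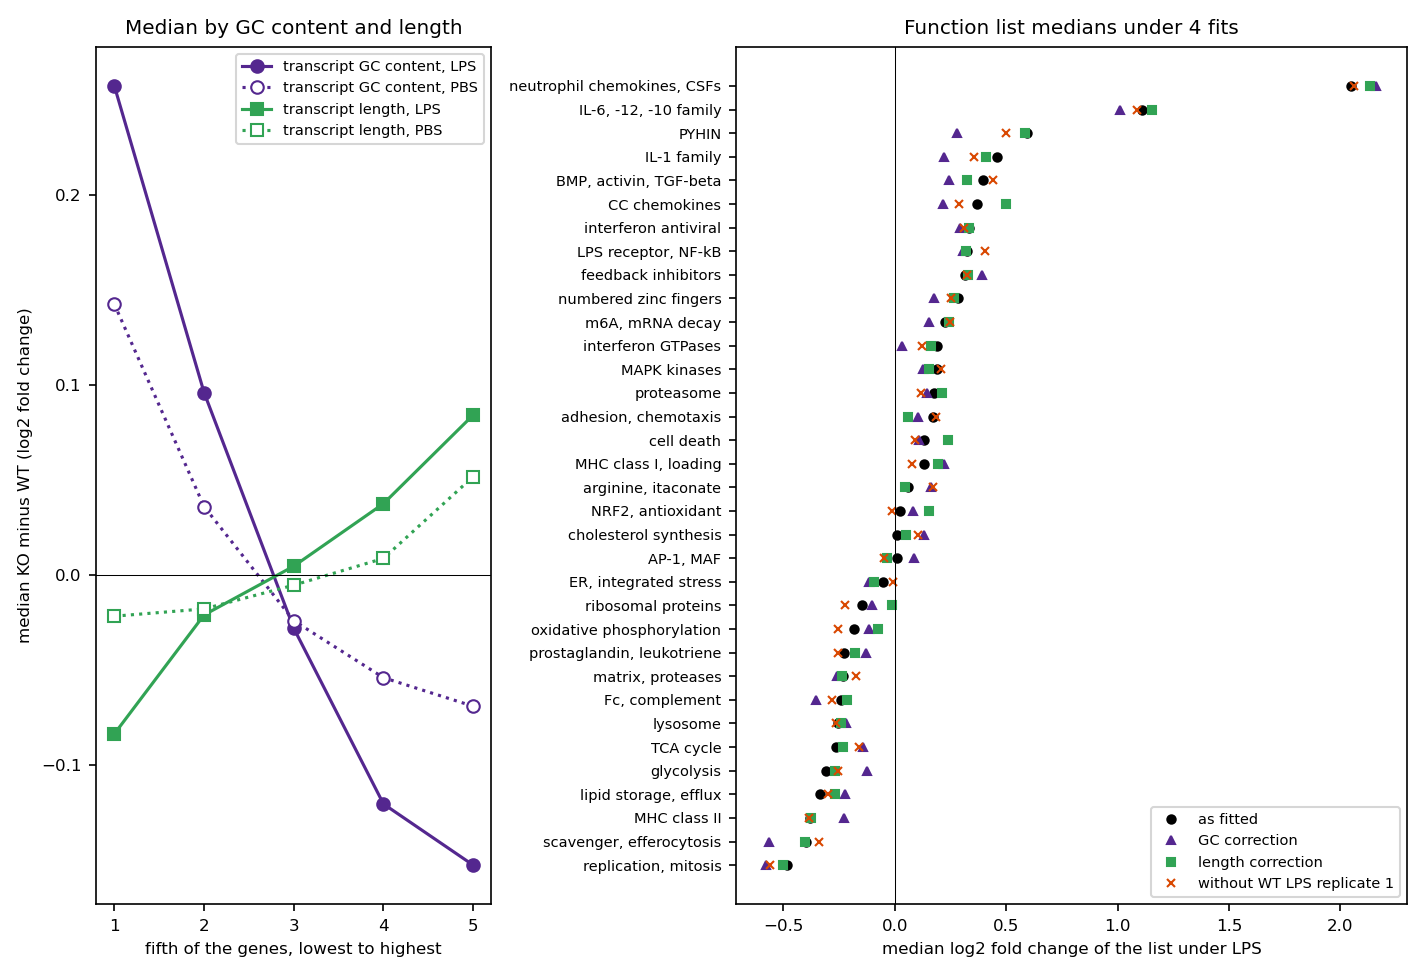
Left, the median KO minus WT log2 fold change (y axis) is given for 5 equal bins of the genes ordered by transcript GC content or length (x axis), under LPS (filled, solid) and PBS (open, dotted). Right, the median log2 fold change of 34 function lists under LPS (x axis) is given as fitted, after each correction and without WT LPS replicate 1, and the neutrophil and interleukin-6 lists have medians above 1 in all 4 fits.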

How the data were processed

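RNA from 12 libraries (3 each of WT PBS, WT LPS, KO PBS and KO LPS, biological replicates per the labels) was sequenced as single reads on a BGISEQ-500. Per the labels, reads were handled with Bowtie2 and RSEM 1.3.1 on GRCm38.p6, whereas the methods name STAR and HTSeq. The authors deposited an expected count per gene and sample, of which 24.6 to 26.9% were fractional, so reads shared by related genes can shift between them. Strand handling is not given in the sources used here.

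Counts were rounded. Genes passing edgeR's filterByExpr over the 4 groups (12064 of 16920) were scaled by TMM and fitted in edgeR 4.0.16 (R 4.3.3, robust quasi-likelihood F test) over all 12 libraries, with KO_LPS - WT_LPS and its difference from KO_PBS - WT_PBS as contrasts and Benjamini-Hochberg adjustment at 0.05 over all genes. Values are log2 fold change ± SE. The code was tested on simulated data. Function lists are described by counts and medians without a set test. Members, lists and rules were chosen with earlier results of these data known. Named genes were the 15 higher and 15 lower with the largest change among genes called, at 5 CPM or more in the higher group and without overlap between the LPS groups, up to 4 called members per list, and members of lists of 15 or fewer. A gene that the rule names is not reported here. Irf8, Tlr2, Tmem173, Nnt and Ide were added after their values were seen. Deviations from group means correlated by -0.01, 0.20 and -0.19 between WT and KO LPS libraries of the same number. Gene positions and promoters came from RefSeq (GRCm38.p6), and GC content and length from the longest GENCODE transcript. Alternatives were RLE, upper-quartile and total scaling, other filters, DESeq2 1.42.0, the 6 LPS libraries alone, a replicate block, leaving out each library, and, added after seeing the data, lowess offsets for GC content and length (span 0.3).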

Additional observations from a re-analysis of the deposited data

Results flagged for a closer look

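For 89 of the genes named, the KO minus WT difference under LPS departed from that under PBS by the interaction contrast at an edgeR adjusted p below 0.05. The log2 interaction values follow, positive where the difference was more positive under LPS. Cytokines and mediators held Cxcl1 3.66, Cxcl3 3.005, Ccl5 2.50, Il1a 2.34, Cxcl2 2.197, Ccl7 1.99, Lif 1.97, Inhba 1.92, Ccl9 1.91, Ccl2 1.85, Ccl22 1.76, Il1rn 1.69, Ccl3 1.52, Ptgs2 1.40, Ccl4 1.29, Gdf15 1.24, Osm 1.04, Il18 0.65, Ccl24 0.64, Ebi3 0.49, Ccl6 0.40 and Il1rap 0.30. For Ccl6 and Ccl24 both differences were negative, that under PBS being the larger. Signalling genes, their inhibitors and receptors held Adora2b 2.23, Cish 1.89, Fosl1 1.54, Socs2 1.52, Fosl2 1.18, Dusp16 1.04, Ccr1 0.99, Nlrp3 0.95, Tlr2 0.88, Irak3 0.64, Nfkb1 0.50, Mapk8 0.49, Tirap 0.48, Cd14 0.48 and Peli1 0.48. Among genes induced by interferon the values were Gbp7 1.08, Ifi211 1.05, Ifi204 0.84, Ifi205 0.80, Parp14 0.79, Ifi203 0.74, Ifi213 0.73, Oas2 0.59, Mndal 0.49, Ifi209 0.44, Ifi207 0.41, Samd9l 0.41 and Slfn8 0.40. Further positive values were Mki67 2.35, Serpinb2 2.31, Slc7a11 1.87, Marco 1.43, Slc2a1 1.07, Idi1 0.87, Txnrd1 0.72, Slc7a2 0.63, Psmd1 0.59, Gclc 0.49, Zfp36l1 0.45, Psmc6 0.38, Rc3h1 0.38, Rc3h2 0.36 and Gsr 0.34, of which Marco was lower in KO-labelled libraries under both treatments.

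More negative differences under LPS were found for Gdf3 -2.82, Gm16867 -2.26, Rubcnl -1.81, Irf8 -1.74, Ccl8 -1.38, Abcg1 -1.06, Tmem254b -0.82, Sdf2l1 -0.75, Gas6 -0.73, Dhcr7 -0.70, Jun -0.64, Idh2 -0.63, Tmem173 -0.62, Rfxank -0.53, Tpi1 -0.45, Rps28 -0.43, Ythdf1 -0.42, C1qc -0.40, Pdia4 -0.40, Mdh1 -0.40, H2-DMb1 -0.32 and C1qa -0.28. Gdf3 was higher in KO-labelled libraries under both treatments, and by more under PBS (6.45). Ythdf1 was higher in KO-labelled libraries under PBS (0.40 ± 0.06). In a PBS group Slc1a2 2.93 and Csf3 5.26 were at or under 3 counts in every library, so these fitted values depend on the small count that edgeR adds. Single outlying samples were not flagged gene by gene in groups of 3. Distances between replicates and fits without each library were used instead.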

How the results depend on the processing

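The number of genes called under LPS was 3892 to 5352 over the 22 alternatives against 4990, and 4109 to 5021 when single libraries were left out. With the replicate block it was 5030, the interaction gave 2132 instead of 2176, and of the named genes 1 call was lost to the block, Myh4. Same-numbered samples did not all deviate together, so the numbers were not taken as pairs. When at least 10 counts were required in every library, 10091 genes were tested and 246 instead of 570 passed 1 log2 unit. The interaction gave 1551 to 2685 when single libraries were left out. Upper-quartile scaling turned the split to 2077 higher and 2921 lower, with a shift of -0.0675 in the median of all genes. DESeq2 called 4909 genes.

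Of 3498 values for 161 named genes under the alternatives, 3446 kept direction and side of the threshold, 38 lost and 4 gained a call, and 10 changed sign, all of genes that had not passed the test. When single libraries were left out, the log2 fold change ranged over -0.0552 to 0.0115 for Ythdf1, -0.0245 to 0.155 for Ccl7 and -0.267 to 0.098 for Ciita. After GC correction it was -0.111 for Ccl7, 0.115 for Ciita and -0.0934 for Ifi214. For Ebi3 it was -0.026 with upper-quartile scaling and -0.0475 with library totals. List medians that were farther from 0 than 1 SD of replicates changed sign for prostaglandin genes (0.16, at least 10 counts in every library), for arginine and itaconate genes (-0.00853 with upper-quartile scaling and -0.0299 with library totals) and for stress genes (-0.0917 to 0.00564 when single libraries were left out, positive without KO LPS replicate 2). Those of AP-1 and MAF, cholesterol synthesis and NRF2 genes, nearer to 0 than that SD, also changed sign, to -0.0809, -0.0773 and -0.0649 with library totals, and over -0.0481 to 0.0485, -0.0239 to 0.105 and -0.0508 to 0.115 when single libraries were left out, where AP-1 and MAF genes were negative without WT LPS replicate 1 and without KO-labelled replicate 1 or 2, cholesterol genes without WT LPS replicate 2 and without KO-labelled replicate 3, and NRF2 genes without WT LPS replicate 1 and without KO-labelled replicate 2. Of 748 list values, 111 moved by more than 1 SD of replicates. The cause was not tested. Depth limits genes near 3 counts per library, such as H2-DMb2.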
